A study of Populus tomentosa with 9 samples.

Results

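Cytochrome P450 genes of cultured poplar cells were examined across 3 cell lines and 3 treatments. The set holds the 32 genes whose description in the authors' deposited comparison tables contains the words cytochrome P450, out of 41624 genes in the deposited expression table. By description, 31 are P450 enzymes, 25 of them of E-class group I, 5 of E-class group IV and 1 of no stated class. The remaining member, POPTR_0018s09980, is described as NADPH-cytochrome P450 reductase, which passes electrons to P450 enzymes and is not itself a P450. Descriptions exist for 2916 of the 2976 genes in the authors' 6 tables of differences between a transgenic line and the wild type, and for no others. These genes were therefore chosen by the measured line differences themselves. Those differences are given below as descriptions with no test, and P450 genes that the authors did not list are not analysed here.

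The cells were suspension cultures of Populus tomentosa, a poplar, and RNA was sequenced from 9 libraries with 1 library for each line and treatment and no replicates. The lines were an overexpression line, an antisense line and the wild type; the labels name neither the gene that the constructs carry nor the promoter, and each line is a single culture. Cells were taken 5 days after subculturing, from cultures kept in the dark, and had received H2O2 at 10 mM for 3 h, ASA at 1 mM for 3 h, or neither (control); the labels do not spell out ASA. The labels give suspension cells as the source, whereas the extraction text speaks of Arabidopsis stems, and the POPTR identifiers are those of poplar.

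P450 enzymes are haem proteins, in plants mostly anchored in the endoplasmic reticulum, that insert an oxygen atom from molecular oxygen into their substrates. They draw electrons from NADPH through the reductase, and for some reactions through cytochrome b5. In plants they shape lignin precursors, flavonoids, terpenoids, sterols, carotenoids, fatty acids and hormones, and they also act on foreign compounds, often ahead of glycosyltransferases and glutathione transferases. The deposited files name a specific enzyme for 1 member: POPTR_0013s08610 is CYP97A3, which in Arabidopsis hydroxylates carotenoid rings. The substrates of the other 30 P450s are not given by the files.

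Values are FPKM, fragments scaled to gene length and to the mapped fragments of the library, so levels can be compared between genes. The 9 libraries held 17102469 to 19629543 reads in genes, and 22584 to 23263 genes reached 1 FPKM in each. The overexpression H2O2 and overexpression ASA libraries stood apart from the other 7 on the first principal component (87.4 and 70.6, against -34.3 to -6.59). Across genes, the H2O2 minus ASA difference of the antisense line ran against that of the wild type (Pearson r = -0.838), whereas that of the overexpression line ran with it (r = 0.622). Whether the labels of the 2 treated antisense libraries are exchanged was not tested. They are kept under their labels, so each antisense value with H2O2 or ASA below holds only as far as those labels do, and the main results that rest on them are also given without them. Of genes that mark green tissue, 2 carried a description. POPTR_0007s07780, a photosystem II assembly factor, had 0.638 to 6.15 FPKM in the overexpression libraries, 4.44 to 9.83 in the antisense libraries and 16.4 to 30.3 in the wild type libraries. With H2O2, ASA and control, POPTR_0014s17070 had 5.82, 19.8 and 4.74 FPKM in the overexpression line, 17.4, 9.21 and 10.9 FPKM in the antisense line and 15.5, 30.9 and 12.1 FPKM in the wild type. Neither was at 0 in any library. Both were lower in the overexpression line than in the wild type in all 3 pairs, the same direction as most P450s below, and their part in those differences was not tested.

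All 32 genes were expressed, which a choice by measured line differences favours. Each had reads in all 9 libraries, the lowest being 5 reads, and only 7 of 288 values lay under 1 FPKM, so all 32 passed the filter of a mean of at least 1 FPKM. Mean levels ran from 4.16 to 222.5 FPKM with a median of 21.7. The 4 most abundant P450s held 49.5% of the summed P450 signal. In the sentences below, 3 values of a line are those of its H2O2, ASA and control libraries, in that order.

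POPTR_0004s24360, of group I, was the most abundant. It had 258, 295 and 340.1 FPKM in the overexpression line, 155, 56.4 and 331 FPKM in the antisense line and 82.9, 171 and 313 FPKM in the wild type. Its 3 control libraries lay close together, and the low libraries were those labelled antisense ASA and wild type H2O2. POPTR_0001s33810, also of group I, had 49.3, 166 and 170.1 FPKM in the overexpression line, 198, 87.5 and 127 FPKM in the antisense line and 86.1, 178 and 126 FPKM in the wild type. Its lines overlapped throughout, with the lowest value in the overexpression H2O2 library. POPTR_0003s16010, of group IV, had 2.12 times between its highest and lowest library: it had 154, 116 and 73.7 FPKM in the overexpression line, 72.6, 80.03 and 100.1 FPKM in the antisense line and 122, 87.1 and 151 FPKM in the wild type. It was higher than the wild type in the treated overexpression libraries and lower in the overexpression control. POPTR_0005s24200, of group I, had 20.5, 38.2 and 106 FPKM in the overexpression line, 121, 41.4 and 128 FPKM in the antisense line and 52.2, 149 and 122 FPKM in the wild type. Its control libraries again lay within a narrow range, while the treated libraries did not.

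Further down, POPTR_0004s15600, of group IV, had 27.3, 59.3 and 48.5 FPKM in the overexpression line, 65.3, 40.2 and 51.0 FPKM in the antisense line and 60.2, 105 and 72.2 FPKM in the wild type. POPTR_0458s00200, of group I, had 10.7, 42.6 and 24.1 FPKM in the overexpression line, 54.5, 44.2 and 42.6 FPKM in the antisense line and 32.7, 49.7 and 41.7 FPKM in the wild type. In both genes the overexpression H2O2 library was the lowest of the 9. The steadiest gene was POPTR_0001s12910, of group IV, with 1.98 times between its highest and lowest library: 53.6, 40.45 and 35.25 FPKM in the overexpression line, 36.0, 38.0 and 37.0 FPKM in the antisense line and 27.4, 27.1 and 38.5 FPKM in the wild type. The widest range was that of POPTR_0014s06770, of group I, at 120.0 times, followed by POPTR_0014s03660 at 70.2 times.

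**Figure D1:**
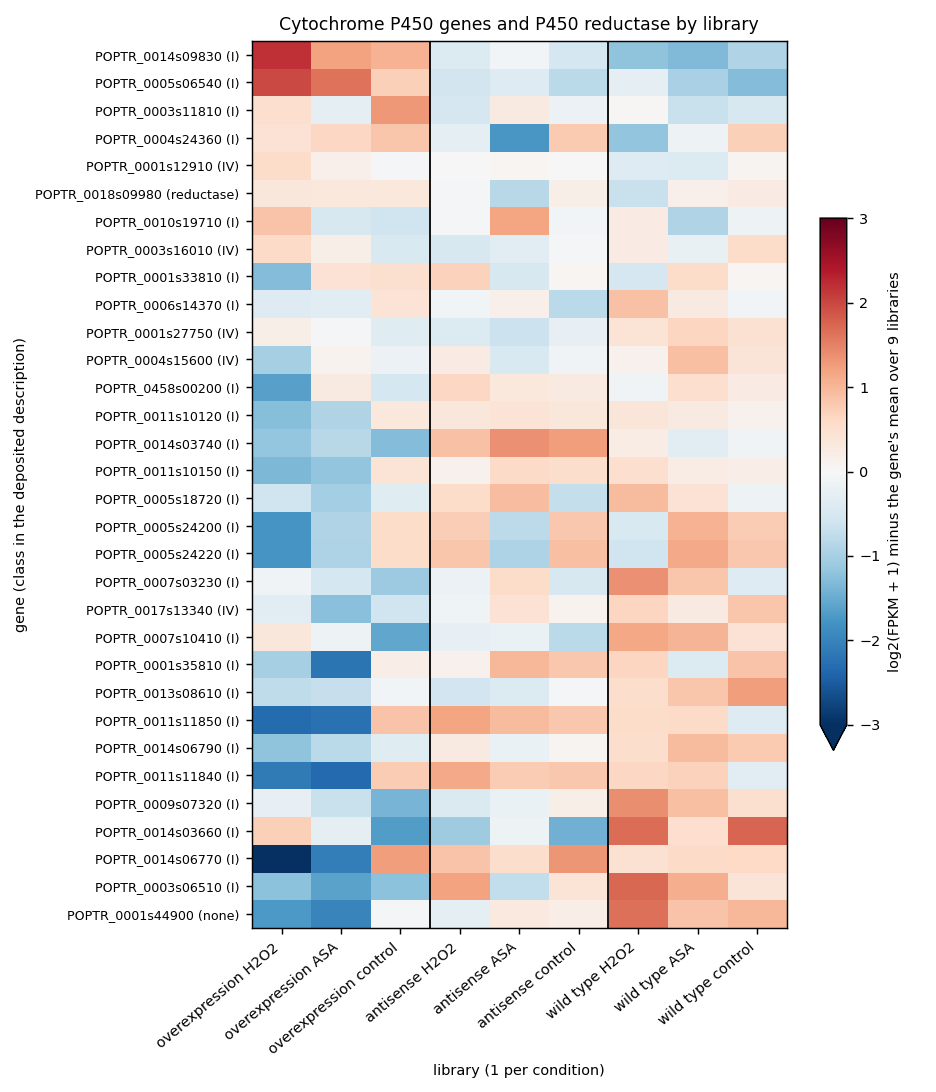
Level of each gene in each library as log2(FPKM + 1) minus the mean of that gene over the 9 libraries (colour, shown between -3 and 3; lower values share the darkest blue), with genes from top to bottom by their mean overexpression minus wild type difference. Blue cells gather in the overexpression H2O2 and ASA columns, where 24 of 32 genes were below the wild type library of the same treatment, and POPTR_0014s09830 and POPTR_0005s06540 at the top are red across the overexpression line.

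The reductase was the flattest member in the overexpression line and not in the others. POPTR_0018s09980 had 188, 186 and 185 FPKM in the overexpression line, 143, 83.2 and 168 FPKM in the antisense line and 92.7, 165 and 178 FPKM in the wild type. Its low libraries were those labelled antisense ASA and wild type H2O2, as for POPTR_0004s24360. The summed level of the 31 P450s was 837, 964 and 1195 FPKM in the overexpression line, 1151, 846 and 1256 FPKM in the antisense line and 1052, 1293 and 1350.0 FPKM in the wild type. Summed P450 level over reductase level was 4.46, 5.19 and 6.45 in the overexpression line, 8.05, 10.2 and 7.47 in the antisense line and 11.4, 7.85 and 7.59 in the wild type. All 3 overexpression ratios lay below all 6 others; the ratio is built from genes that line differences chose, and no test was made of it.

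**Figure D2:**
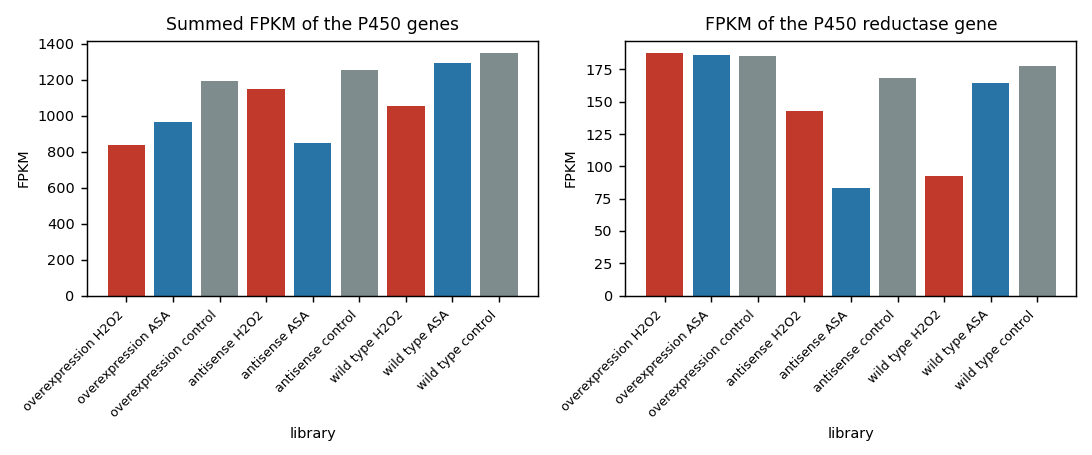
Summed FPKM of the 31 P450 genes (left) and FPKM of the P450 reductase gene POPTR_0018s09980 (right) in each library, 1 bar per library. The reductase bars are level at 185 to 188 FPKM in the overexpression line, while the summed P450 bars of that line run between 837 and 1195 FPKM.

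In the overexpression line most of these genes stood lower than in the wild type. Of 32 genes, 25 had a lower and 7 a higher mean over the 3 treatments, with a median difference of -1.043 on the log2(FPKM + 1) scale against 0.001 over all 23350 genes tested. In whole cultures, fewer cells that express a gene and less of its RNA per cell cannot be told apart. In all 3 pairs of libraries 17 genes were lower and 5 were higher, where 21.8% and 24.1% of all genes were so. The mean difference reached 2-fold lower in 18 genes and 2-fold higher in 2, against 4.7% and 2.33% of all genes. The authors' deposited tables supplied this choice of genes, listing 14 members as lower and 5 as higher in overexpression H2O2 against wild type H2O2 (3.11% of all genes listed in either direction), 11 and 1 with ASA (3.69%) and 5 and 1 in the controls (2.58%). Of all genes listed, 606 were lower and 424 higher with H2O2, 757 and 467 with ASA and 553 and 303 in the controls. A share above the background is what such a choice gives, and nothing is read from it. The smallest absolute log2 fold that the authors' deposited tables give for a listed member is 1.052 and the largest q-value is 0.00395; genes just outside their limits carry no description.

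Among these members the difference was larger in the treated libraries. For the overexpression line the authors listed 19 members with H2O2, 12 with ASA and 6 in the controls. A larger difference in the treated pairs can follow from that choice of genes, and nothing is read from it. At 2-fold, asking for 1 FPKM or more in the higher of the 2 libraries, 19 members were lower and 4 higher in overexpression H2O2 against wild type H2O2 (8.28% and 4.33% of all genes). With ASA, 17 were lower and 2 higher (8.46% and 5.46%), and in the control libraries 10 were lower and 5 higher (4.77% and 6.17%). The median differences were -1.269 with H2O2, -1.171 with ASA and -0.347 in the controls. Group I genes had medians of -1.37, -1.36 and -0.20 in that order. Group IV genes had medians of -0.23, -0.67 and -0.83, and all 5 were lower in the overexpression control. Without both treated overexpression libraries the median over all 32 genes was -0.36. Those are the libraries that stand apart on the first principal component, and the part of that separation in the P450 differences was not tested.

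A set of 3 group I genes was far lower in the treated overexpression libraries than in all others. POPTR_0001s44900, given further below, was also lowest in those libraries, at 1.34 FPKM with H2O2 and 0.963 FPKM with ASA. POPTR_0014s06770 had 0.302, 2.55 and 34.4 FPKM in the overexpression line, 26.0, 20.5 and 36.2 FPKM in the antisense line and 19.6, 21.1 and 21.5 FPKM in the wild type. The overexpression H2O2 library held 9 reads of it, against 564 in wild type H2O2, a level 64.9 times lower (exact 95% interval 33.9 to 143, counting error only). POPTR_0011s11840 had 1.78, 1.40 and 19.4 FPKM in the overexpression line, 25.45, 19.5 and 20.2 FPKM in the antisense line and 17.7, 18.4 and 8.68 FPKM in the wild type. POPTR_0011s11850 had 2.54, 2.69 and 30.6 FPKM in the overexpression line, 38.7, 32.7 and 29.4 FPKM in the antisense line and 24.4, 25.1 and 12.4 FPKM in the wild type. For all 3 genes the overexpression control was above the wild type control, so the sign of the line difference depended on the treatment: in the control pair the overexpression minus wild type difference was 0.65 for POPTR_0014s06770, 1.07 for POPTR_0011s11840 and 1.23 for POPTR_0011s11850. POPTR_0011s11840 and POPTR_0011s11850 kept nearly the same ratio in all 9 libraries (0.521 to 0.732). Their identifiers are neighbours. If they are near-identical copies, reads may not be assigned cleanly to either gene, so they may not be separate signals.

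Other group I genes were lower with all 3 treatments. POPTR_0003s06510 had 4.39, 3.14 and 4.36 FPKM in the overexpression line, 28.0, 6.62 and 15.8 FPKM in the antisense line and 40.4, 25.8 and 15.6 FPKM in the wild type. It averaged 3.96 ± 0.71 FPKM in the overexpression line and 27.3 ± 12.5 FPKM in the wild type (SD over 3 libraries of different treatment), a log2(FPKM + 1) difference of -2.42. POPTR_0009s07320 had 5.27, 3.69 and 1.84 FPKM in the overexpression line, 4.56, 5.49 and 7.47 FPKM in the antisense line and 18.5, 12.9 and 9.41 FPKM in the wild type. Its overexpression values lay below all wild type values, with pair differences of -1.64, -1.57 and -1.87. The gene of no stated class, POPTR_0001s44900, had 1.34, 0.963 and 6.51 FPKM in the overexpression line, 5.37, 8.46 and 7.89 FPKM in the antisense line and 23.4, 13.0 and 14.5 FPKM in the wild type. It too was below every wild type library in every overexpression library, most so with H2O2, where it was 17.5 times lower (exact 95% interval 12 to 26.4).

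POPTR_0013s08610 (CYP97A3) had the most even overexpression minus wild type difference over treatments. It had 7.76, 8.16 and 13.1 FPKM in the overexpression line, 8.95, 10.1 and 13.4 FPKM in the antisense line and 20.3, 25.4 and 34.6 FPKM in the wild type. The overexpression minus wild type difference was -1.28, -1.52 and -1.34 with H2O2, ASA and control, and the antisense minus wild type difference was -1.10, -1.24 and -1.31. No library of either transgenic line reached the lowest wild type library. The green tissue gene POPTR_0007s07780 was likewise higher in the wild type than in either transgenic line, and its part in this difference was not tested.

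POPTR_0014s03660 was low in both transgenic lines, with the lowest levels in the controls. It had 5.12, 2.07 and 0.163 FPKM in the overexpression line, 0.768, 2.32 and 0.374 FPKM in the antisense line and 10.9, 4.26 and 11.4 FPKM in the wild type. The overexpression control held 5 reads against 342 in the wild type control, a level 70.2 times lower (exact 95% interval 29.8 to 218). The antisense control held 10 reads, a level 30.6 times lower (16.4 to 64.4). The wild type ASA library, at 4.26 FPKM, lay below overexpression H2O2, so the lines overlapped. Its neighbour by identifier, POPTR_0014s03740, followed another pattern: it had 2.48, 3.405 and 2.16 FPKM in the overexpression line, 13.3, 19.2 and 17.6 FPKM in the antisense line and 8.01, 5.20 and 6.25 FPKM in the wild type. The 3 lines did not overlap for POPTR_0014s03740, with the antisense line the highest and the overexpression line the lowest.

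Few members stood higher in the overexpression line. POPTR_0014s09830, of group I, had 17.2, 8.12 and 7.19 FPKM in the overexpression line, 1.99, 2.76 and 1.74 FPKM in the antisense line and 0.716, 0.588 and 1.11 FPKM in the wild type. The overexpression line was the highest and the wild type the lowest with no overlap, and in the H2O2 libraries the level was 24.1 times that of the wild type (exact 95% interval 15.8 to 38.8, from 549 and 22 reads). POPTR_0005s06540, of group I, had 29.9, 23.2 and 11.8 FPKM in the overexpression line, 4.41, 4.97 and 3.52 FPKM in the antisense line and 5.41, 2.99 and 2.21 FPKM in the wild type. All 3 overexpression values lay above the other 6, with pair differences of 2.27, 2.60 and 1.99. POPTR_0003s11810, of group I, had 15.0, 8.32 and 26.8 FPKM in the overexpression line, 6.97, 12.55 and 9.07 FPKM in the antisense line and 10.5, 6.17 and 7.08 FPKM in the wild type. Here the control pair carried most of the difference (1.78, against 0.47 with H2O2 and 0.38 with ASA). POPTR_0004s24360 and the reductase, given above, were higher in all 3 pairs too, by 1.63 and 1.01 with H2O2 and by 0.12 and 0.06 in the controls.

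**Figure D3:**
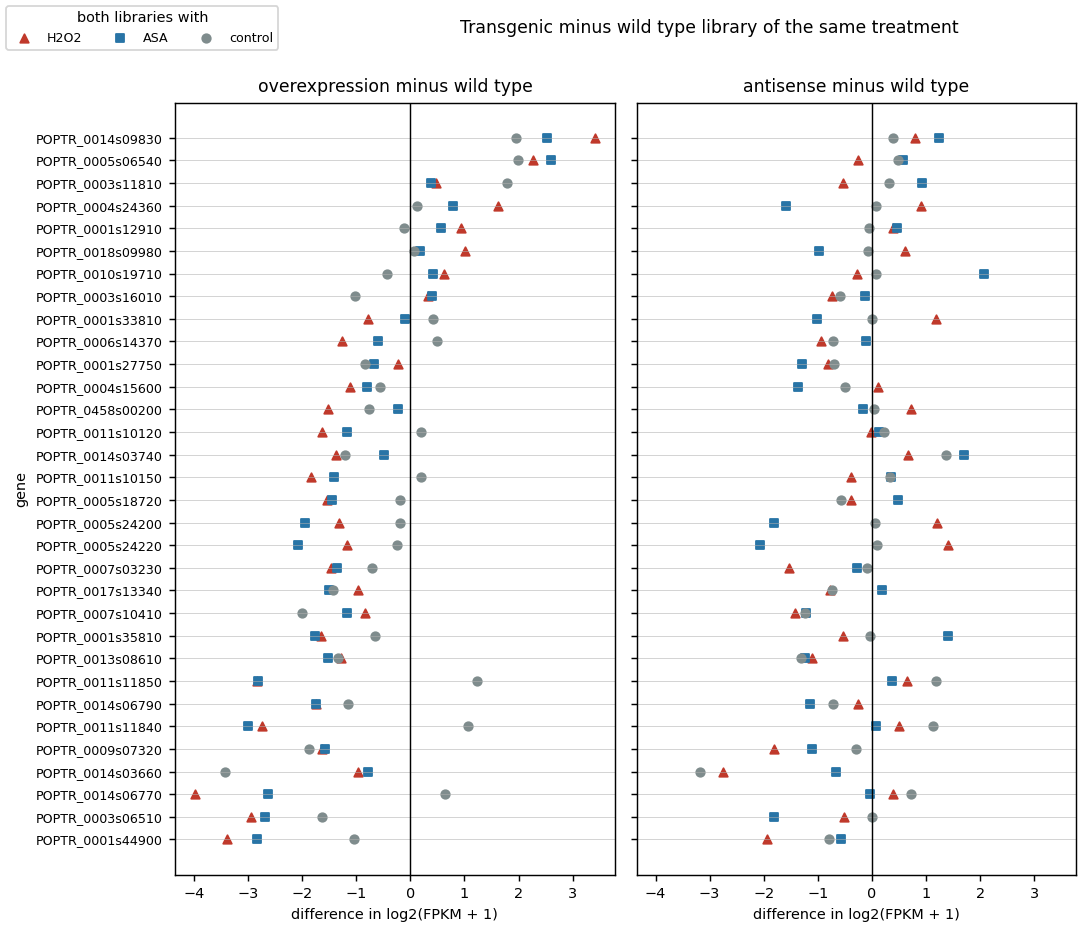
Overexpression minus wild type (left) and antisense minus wild type (right) differences in log2(FPKM + 1) for each gene, 1 point per treatment, both libraries with the same treatment. On the left 17 genes have all 3 points below 0 and 5 have all 3 above; on the right these counts are 10 and 4, and the H2O2 and ASA points of several genes lie on opposite sides of 0.

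Among these members the antisense line differed less from the wild type. Its median difference was -0.174, against 0.090 over all genes, with 14 genes above 0 and 18 below. In all 3 pairs 10 genes were lower and 4 were higher, where 11.3% and 21.1% of all genes were so, and the mean difference reached 2-fold lower in 5 genes and 2-fold higher in 1 (1.56% and 0.664%). At 2-fold, 3 members were lower and 3 higher in the controls (2.15% and 2.39% of all genes). In the libraries labelled H2O2, 6 were lower and 3 higher (3.78% and 4.58%), and in those labelled ASA 11 were lower and 4 higher (8.06% and 6.74%). The authors' deposited tables list 1 member in the controls (0.748% of all genes), 6 with H2O2 (1.99%) and 11 with ASA (4.2%). For the overexpression line they list 6, 19 and 12 members in the same order. A smaller antisense difference can follow from that choice of genes, and nothing is read from it. Over all genes, 8.46% were 2-fold lower and 5.46% higher in overexpression ASA against wild type ASA. In the antisense control pair, which uses neither treated antisense library, the median was -0.017, with 16 genes above 0 and 16 below.

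Genes lower in all 3 antisense pairs included POPTR_0007s10410, of group I, which had 15.1, 10.5 and 3.33 FPKM in the overexpression line, 9.79, 10.1 and 6.35 FPKM in the antisense line and 27.8, 24.9 and 16.4 FPKM in the wild type. Its antisense minus wild type differences were -1.42, -1.22 and -1.24, and both transgenic lines lay below every wild type value. POPTR_0001s27750, of group IV, had 23.9, 20.6 and 16.1 FPKM in the overexpression line, 15.6, 13.0 and 17.6 FPKM in the antisense line and 28.2, 33.4 and 29.3 FPKM in the wild type, again with no overlap between either transgenic line and the wild type. On the higher side, POPTR_0014s03740 led with a mean difference of 1.24, followed by POPTR_0014s09830 at 0.81 (2.17 ± 0.532 FPKM in the antisense line and 0.806 ± 0.274 FPKM in the wild type, SD over 3 libraries). POPTR_0011s11850 (0.73) and POPTR_0011s11840 (0.57) were also higher in all 3 pairs, and the control pair, which uses neither treated antisense library, gave 1.18 and 1.13.

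For some genes the antisense difference changed sign with the treatment label. POPTR_0005s24200 was at 1.20 with H2O2 and at -1.82 with ASA. POPTR_0005s24220, of group I, had 9.38, 17.5 and 50.7 FPKM in the overexpression line, 61.4, 17.6 and 64.7 FPKM in the antisense line and 22.4, 77.2 and 60.6 FPKM in the wild type, which gives 1.41 with H2O2 and -2.07 with ASA. For POPTR_0005s24220 the antisense ASA library was near wild type H2O2. Its antisense H2O2 library was nearer the antisense and wild type controls than wild type ASA. POPTR_0001s33810, POPTR_0004s24360 and the reductase had the same signs (1.19, 0.90 and 0.62 with H2O2, and -1.02, -1.58 and -0.98 with ASA). POPTR_0010s19710, of group I, had the opposite signs: it had 13.3, 4.63 and 4.18 FPKM in the overexpression line, 6.66, 16.8 and 6.44 FPKM in the antisense line and 8.28, 3.21 and 6.04 FPKM in the wild type, or -0.28 with H2O2 and 2.08 with ASA. These genes follow the reversal between the treated antisense libraries and the wild type that was measured across all genes. POPTR_0005s24200 and POPTR_0005s24220 kept a ratio of 1.93 to 2.36 in all 9 libraries and have neighbouring identifiers. The same caution on read assignment applies to them.

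**Figure D4:**
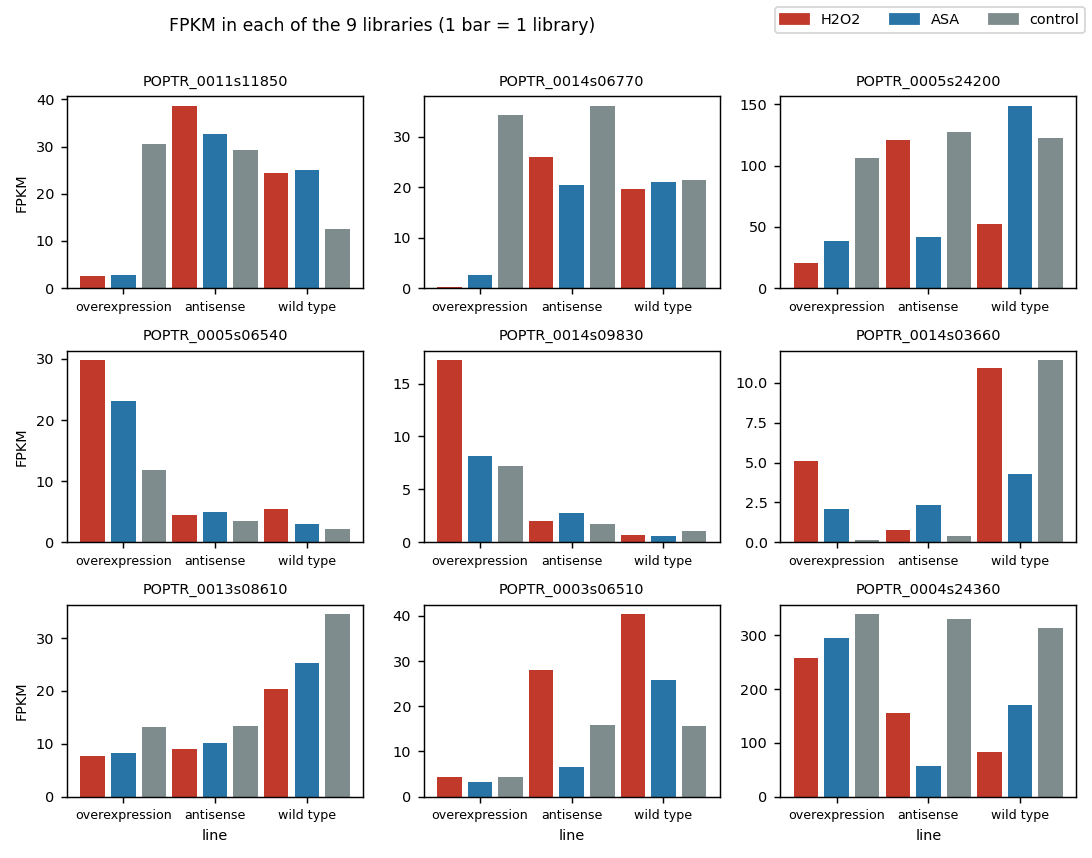
FPKM of 9 genes in each library, 1 bar per library, with the H2O2, ASA and control bars of each line from left to right. POPTR_0011s11850 and POPTR_0014s06770 are lowest in the treated overexpression libraries. POPTR_0005s06540 and POPTR_0014s09830 are tallest in the overexpression line, and POPTR_0013s08610 is tallest in the wild type in each treatment.

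Treatment effects averaged over the 3 lines were not used to choose the genes, and they were tested with limma over 23350 genes. The genes were chosen by line differences within single treatments, which can favour wide scatter of a treatment effect over the lines, and that scatter is the residual of this test. None of the 32 genes passed an adjusted p of 0.05: 0 passed for H2O2 against control, 0 for ASA against control and 0 for H2O2 against ASA (0.00428%, 0% and 0% of all genes). At an unadjusted p below 0.05 the counts were 4, 5 and 1 of 32, which is 12.5%, 15.6% and 3.12%, against 6.57%, 5.67% and 0.36% of all genes. Voom on the recovered reads gave 0 calls in each comparison and the same 3 counts of members at that unadjusted p. The median of the members was -0.221 for H2O2 and -0.171 for ASA against control, with -0.015 and -0.046 over all genes. Without both treated overexpression libraries it was 0.02 for H2O2, and without the overexpression control it was -0.05 for H2O2 and -0.02 for ASA. With a single library per condition the test sees an effect only against its scatter over the lines.

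The genes furthest above control with H2O2 were POPTR_0007s10410 and POPTR_0007s03230, both of group I. POPTR_0007s10410 averaged 17.6 ± 9.26 FPKM with H2O2 and 8.69 ± 6.83 FPKM in controls (SD over 3 lines), a difference of 1.06 ± 0.27 (log2, SE; limma adjusted p = 0.571) that was positive in 3 of 3 lines. With ASA it was at 0.86 ± 0.27 (limma adjusted p = 0.751). POPTR_0007s03230 had 17.3, 12.7 and 8.18 FPKM in the overexpression line, 16.4, 27.8 and 13.1 FPKM in the antisense line and 49.4, 34.0 and 13.9 FPKM in the wild type. In each line both treated libraries were above the control, by 1.02 ± 0.30 with H2O2 (limma adjusted p = 0.643) and by 0.94 ± 0.30 with ASA (limma adjusted p = 0.752). Without both treated antisense libraries these values were 1.38 and 0.90, and without both treated overexpression libraries 1.03 and 1.13. POPTR_0005s06540 was also above control in all 3 lines, at 0.84 ± 0.24 with H2O2 (limma adjusted p = 0.635) and 0.54 with ASA. The difference of POPTR_0014s03660 with H2O2, 0.90, came from the overexpression line, and without both treated overexpression libraries it was 0.15. POPTR_0005s18720, of group I, had 14.5, 10.7 and 17.4 FPKM in the overexpression line, 33.5, 43.75 and 13.2 FPKM in the antisense line and 44.2, 30.9 and 20.1 FPKM in the wild type. Its ASA difference of 0.53 was negative in the overexpression line and -0.03 without both treated antisense libraries.

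On the lower side with H2O2 stood POPTR_0014s06770 (-1.79 ± 0.81), POPTR_0005s24220 (-1.26 ± 0.62), POPTR_0005s24200 (-1.20 ± 0.56) and POPTR_0004s24360 (-1.13 ± 0.49), with limma adjusted p of 0.748 to 0.758. Each was below control in all 3 lines, but some of these differences were close to 0. POPTR_0005s24200 and POPTR_0005s24220 were at -0.08 and -0.07 in the antisense line, and POPTR_0014s06770 was at -0.13 in the wild type. Without both treated overexpression libraries POPTR_0005s24200 was at -0.64, POPTR_0005s24220 at -0.73 and POPTR_0004s24360 at -1.50. POPTR_0004s24360 averaged 165 ± 88.1 FPKM with H2O2 and 328 ± 13.9 FPKM in controls, and its spread was far wider among the treated libraries than among the controls. For POPTR_0014s06770 the overexpression line carried the value: without both treated overexpression libraries it was -0.30. With ASA the lowest were POPTR_0014s06770 (-1.38), POPTR_0004s24360 (-1.20), POPTR_0001s35810 (-1.15) and POPTR_0005s24220 (-0.99). Without both treated antisense libraries these genes were at -1.67, -0.54, -1.82 and -0.57 in that order. The largest fall of POPTR_0004s24360 was in the antisense line (-2.53, against -0.21 in the overexpression line and -0.87 in the wild type). POPTR_0005s24220 was above its control in the wild type (0.34). POPTR_0001s35810, of group I, had 10.8, 4.19 and 25.9 FPKM in the overexpression line, 24.7, 46.0 and 40.3 FPKM in the antisense line and 36.1, 16.7 and 41.5 FPKM in the wild type. It was below control with ASA in the overexpression line and the wild type and not in the antisense line. POPTR_0013s08610 (CYP97A3) had the smallest unadjusted p of the set for H2O2 (0.00391; limma adjusted p = 0.553), with its 3 lines alike at -0.69, -0.53 and -0.74 in the overexpression, antisense and wild type lines. With ASA it was at -0.62, -0.37 and -0.43 in the same lines.

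H2O2 against ASA gave smaller differences. POPTR_0003s06510 was the furthest at 0.98 ± 0.38 (limma adjusted p = 1), higher with H2O2 in 3 of 3 lines, and POPTR_0458s00200 was at -0.73 ± 0.37 (limma adjusted p = 1). The others taken by the naming rule were POPTR_0001s35810 (0.46), POPTR_0010s19710 (0.42) and POPTR_0014s03660 (0.42) on the higher side, and POPTR_0001s33810 (-0.53), POPTR_0014s06770 (-0.41) and POPTR_0004s15600 (-0.40) on the lower side. Each of these 6 genes had the antisense line on the opposite side of 0 from both other lines. So did many other members, among them POPTR_0005s24200 and POPTR_0007s03230. Without both treated antisense libraries the 6 genes were at 1.12, 1.24 and 1.09 on the higher side. On the lower side they were at -1.38, -0.78 and -0.94. With the same libraries left out, POPTR_0003s06510 was at 0.50 and POPTR_0458s00200 at -1.24. POPTR_0003s06510 had differences of 0.38, 1.93 and 0.63 in the overexpression, antisense and wild type lines, so the antisense line carried most of its value.

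Within each line, treated and control libraries were set side by side without a test, and both treatments share the control library of the line. In the overexpression line 11 members were 2-fold lower and 7 higher with H2O2 (9.52% and 5.65% of all genes), and 10 were lower and 2 higher with ASA (8.85% and 4.87%). In the antisense line 1 was lower and 1 higher with H2O2 (1.22% and 1.14%), and 5 were lower and 4 higher with ASA (4.93% and 3.12%). In the wild type 3 were lower and 3 higher with H2O2 (3.21% and 3.46%), and 2 were lower and 2 higher with ASA (1.8% and 2.75%). These differences share libraries with the line comparisons that chose the genes, and no count is read against its background.

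The widest spread of a response over lines was that of POPTR_0014s06770 with H2O2, at -4.76, -0.46 and -0.13 in the overexpression, antisense and wild type lines. The overexpression H2O2 library was 114 times lower than its own control (exact 95% interval 59.8 to 250.0, from 9 and 1039 reads). With ASA the same gene was at -3.32, -0.79 and -0.03. POPTR_0011s11850 was at -3.16, 0.39 and 0.92 with H2O2 and POPTR_0011s11840 at -2.87, 0.32 and 0.95, so the overexpression line was the one below its control. POPTR_0014s03660 went the other way, at 2.40, 0.36 and -0.06, with 155 reads in overexpression H2O2 and 5 in the overexpression control.

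**Figure D5:**
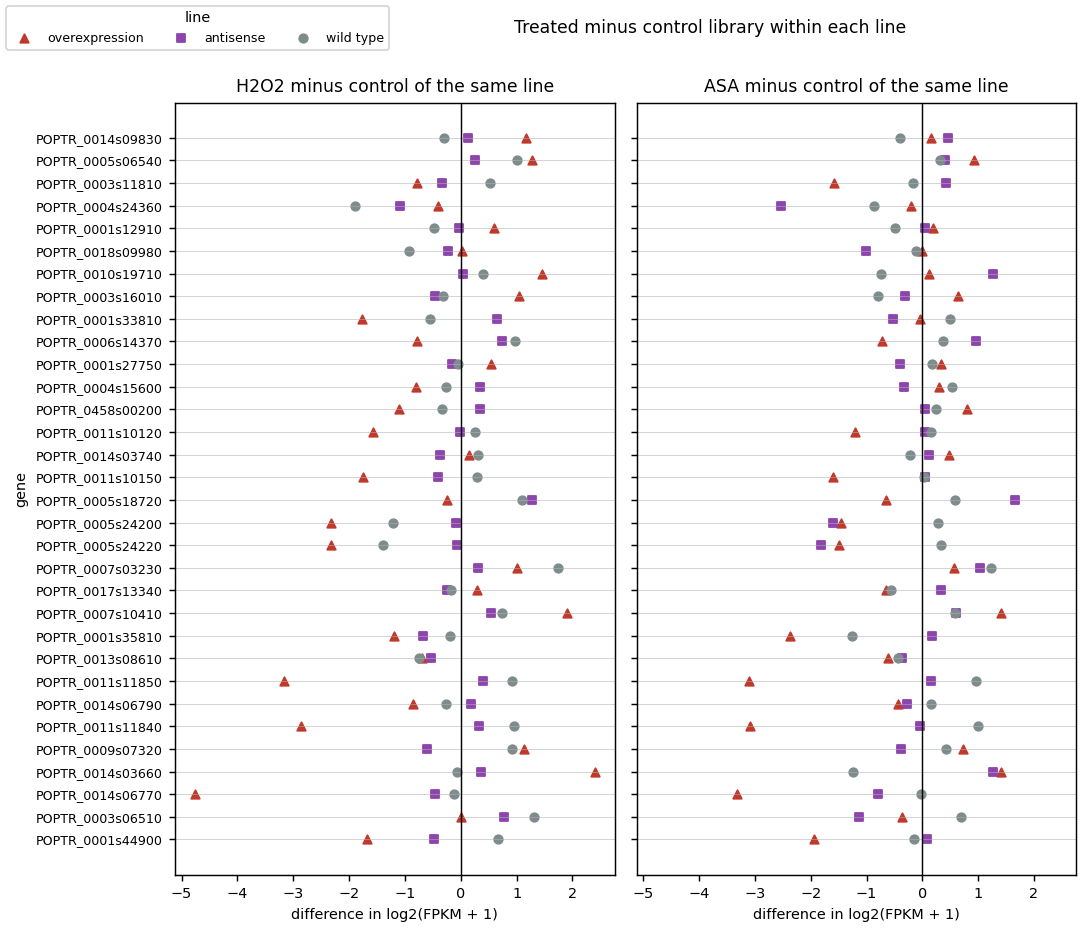
H2O2 minus control (left) and ASA minus control (right) in log2(FPKM + 1) for each gene, 1 point per line. The overexpression points reach -4.76 on the left for POPTR_0014s06770, while the antisense and wild type points of that gene lie at -0.46 and -0.13.

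The 5 members not yet given ranged as follows. POPTR_0017s13340, of group IV, had 13.9 to 27.5 FPKM in the overexpression line, 31.2 to 47.1 FPKM in the antisense line and 41.5 to 61.8 FPKM in the wild type, with no overlap between the overexpression line and the wild type. POPTR_0014s06790, of group I, had 5.86 to 11.35 FPKM in the overexpression line, 12.8 to 18.1 FPKM in the antisense line and 21.9 to 29.6 FPKM in the wild type, so that its 3 lines did not overlap. POPTR_0011s10120 and POPTR_0011s10150 were low in the treated overexpression libraries alone. POPTR_0011s10120 had 8.04 and 10.7 FPKM there, 26.1 FPKM in the overexpression control and 22.7 to 27.8 FPKM in the other 6 libraries. The pair kept a ratio of 1.24 to 1.82 and has close identifiers, so the caution on read assignment given above applies to it. POPTR_0006s14370 had 14.0 to 47.5 FPKM over all libraries, with its lines overlapping.

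Genes of neighbouring steps that carry a deposited description were set beside the P450s. The authors listed them for line differences, so their line differences are given as descriptions with no test. Over all 23350 genes, 11685 had a mean overexpression minus wild type difference above 0 and 11665 below 0. The genes that the authors listed were not so even, with 606 lower and 424 higher with H2O2, 757 and 467 with ASA and 553 and 303 in the controls. A lean of the lists below 0 can follow from that choice of genes, and nothing is read from it. Among 11 cytochrome b5 domain genes 3 were above 0 and 8 below, with a median of -0.74. The furthest was POPTR_0014s01940 at -2.71, with 22.3, 14.0 and 18.5 FPKM in the overexpression line, 122, 132 and 118 FPKM in the antisense line and 191, 150.0 and 64.8 FPKM in the wild type. All 3 of its overexpression values lay below the other 6. POPTR_0014s08750, described as a fatty acid desaturase with a cytochrome b5 domain, followed at -1.46. Of the 3 genes with reductase or flavodoxin-type domains, P450 reductase included, 1 was above 0 and 2 below.

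The list called phenylpropanoid entry held 13 genes described as ammonia-lyases or AMP-dependent synthetases. Which of the synthetases act in phenylpropanoid synthesis was not tested. Of the 13 genes, 2 were above 0 and 11 below, with a median of -0.71. The furthest were POPTR_0006s12870 (-1.74), POPTR_0016s09230 (-1.50) and POPTR_0001s04380 (-1.50). POPTR_0006s12870 and POPTR_0016s09230 are phenylalanine ammonia-lyases, the enzymes that feed the P450 steps of lignin and flavonoid synthesis. POPTR_0006s12870 had 64.8, 62.7 and 99.8 FPKM in the overexpression line, 192, 186 and 265 FPKM in the antisense line and 321, 274 and 176 FPKM in the wild type, so that the overexpression line lay below both others. Of 7 chalcone synthases and isomerases 0 were above 0 and 7 below (median -1.71). The counts were 7 above and 16 below for 23 2-oxoglutarate dioxygenases (median -0.40), 3 and 19 for 22 glutathione transferases (median -0.76), 9 and 25 for 34 UDP-glycosyltransferases (median -0.38) and 1 and 5 for 6 O-methyltransferases (median -0.60). The O-methyltransferase above 0 was POPTR_0014s10220 at 1.68, with 497, 911 and 348 FPKM in the overexpression line and 125, 216 and 174 FPKM in the wild type. Of 4 terpenoid genes 2 were above 0 and 2 below, the furthest being the squalene cyclase POPTR_0014s00350 (-2.27), which lay at 0.158 to 0.892 FPKM in the overexpression line and 3.70 to 7.23 FPKM in the wild type.

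For antisense against wild type, where 14444 of all genes were above 0 and 8904 below, the same lists had medians of -0.40 (cytochrome b5), -0.31 (phenylpropanoid entry), -0.49 (chalcone synthases and isomerases), -0.28 (dioxygenases), -0.10 (glutathione transferases), -0.30 (UDP-glycosyltransferases) and -0.26 (O-methyltransferases). The authors listed 177 genes as lower and 71 as higher in the antisense control, 225 and 435 with H2O2 and 1085 and 306 with ASA. That choice of genes can shift the medians of these lists, and nothing is read from them. In the 3 treatment comparisons, which were tested, 0 genes of these lists passed the limma threshold. No gene with a BAHD transferase description was found (0).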

How the data were processed

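RNA-seq was deposited for 9 libraries, 1 per line and treatment. The submitters' processing notes name HTSeq 0.6.1, TopHat2 2.0.12, TopHat and Bowtie2 2.2.3. What each tool did is not given in the sources used here, nor is the genome build. The authors deposited a table of FPKM values and 6 tables of line differences. These 6 hold, per the file headers, a scaled signal per library whose scale is unstated, log2 fold changes and q-values; genes in them start at an absolute log2 fold of 1 and reach a q-value of 0.00498.

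Members were the genes whose deposited description contains the words cytochrome P450. The members and lists were chosen with earlier results of these data known. All 33158 genes above 0 gave whole reads from their FPKM steps (100%, within 0.01 of a read), although 1546 of them have reads in 1 library only and fix no ratio. These reads gave depth, and exact 95% intervals for read ratios, which cover counting error only. The main test was limma 3.58.1 (R 4.3.3) with a trend on log2(FPKM + 1), additive in line and treatment, over all 9 libraries, and Benjamini-Hochberg adjustment over the 23350 genes whose mean reached 1 FPKM (threshold 0.05). This leaves 4 residual degrees of freedom, and the residual is the scatter of an effect over the other factor. The scale understates the change of low genes. Each library is a single sample, so p-values measure this scatter and not the spread between replicate cultures. Library pairs were called different at 2-fold on log2(FPKM + 1) where the higher library had 1 FPKM or more, without a test. No 2 libraries held identical values (0 pairs). Alternatives were a pseudocount of 0.1, other filters, voom on the recovered reads, equal medians, a 3-fold limit and left-out libraries.

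Genes named with all values were the 8 most abundant, the 6 highest and 6 lowest in each line comparison, the 4 furthest in each direction in each treatment comparison and the 4 with the widest spread of each response over lines. POPTR_0017s13340, POPTR_0014s06790, POPTR_0011s10120, POPTR_0011s10150 and POPTR_0006s14370 are given to account for every member. The identifiers of 0 members matched the reference table of gene names; no coordinates were used.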

Additional observations from a re-analysis of the deposited data

Results flagged for a closer look

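With ASA, 2 of 32 genes differed from the control of their line by at least 2-fold in opposite directions between lines. So did 2.09% of all genes. POPTR_0011s11840 was at -3.08 (log2) in the overexpression line and at 1.00 in the wild type. POPTR_0014s03660 was at 1.40 in the overexpression line, at 1.27 in the antisense line and at -1.24 in the wild type. With H2O2, 0 of 32 genes did so (0.973% of all genes). These differences between lines were not tested, each rests on 1 library per condition, and they are built from the line differences that chose the genes.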

How the results depend on the processing

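No member passed the threshold for H2O2 against control, ASA against control or H2O2 against ASA under any of 17 alternatives (0 in each). Among all genes 0 to 1 passed for H2O2 against control, and 0 passed in each of the other comparisons. At an unadjusted p below 0.05 there were 3 to 14, 2 to 8 and 0 to 8 members. For these counts and the 3-fold counts below the share of all genes is not given here, and nothing is read from them. Requiring 3-fold in place of 2-fold lowered the number of members differing between libraries to 13 of 23 (overexpression H2O2 against wild type H2O2), 11 of 19 (ASA) and 7 of 15 (control), to 3 of 9 (antisense H2O2 against wild type H2O2), 5 of 15 (ASA) and 1 of 6 (control), to 10 of 18 (H2O2 against control) and 6 of 12 (ASA) in the overexpression line, to 0 of 2 and 4 of 9 in the antisense line and to 2 of 6 and 0 of 4 in the wild type. The median overexpression minus wild type difference, -1.04, was -0.36 without both treated overexpression libraries and -1.19 to -0.75 with 1 library left out. The antisense median, -0.17, was -0.31 without both treated antisense libraries, where the additive fit takes treatment effects from the other lines (the control pair itself had a median of -0.017), and -0.32 to 0.12 with 1 library left out, above 0 without wild type ASA. The H2O2 minus control median, -0.22, was -0.32 to -0.05 with 1 library left out, at -0.05 without overexpression control or overexpression H2O2, and 0.02 without both treated overexpression libraries. The ASA minus control median, -0.17, was -0.23 to -0.02, at -0.02 without overexpression control and -0.08 without overexpression ASA. The H2O2 minus ASA median, 0.09, was -0.09 to 0.19 with 1 library left out, below 0 without overexpression ASA.

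Without both treated overexpression libraries the sign changed for 12 of 32 members with H2O2, 7 with ASA and 13 for H2O2 against ASA; without both treated antisense libraries it changed for 1, 6 and 5. Among the genes that the naming rule takes for a treatment comparison, directions reversed for 6. POPTR_0005s18720 with ASA was at -0.03 without both treated antisense libraries and at -0.03 without the whole antisense line. For H2O2 against ASA, without both treated overexpression libraries POPTR_0001s33810 was at 0.06, POPTR_0010s19710 at -0.04 and POPTR_0014s06770 at 0.11. Leaving out 1 library gave -1.26 to 0.07 for POPTR_0001s33810, -0.02 to 1.13 for POPTR_0001s35810, -0.01 to 1.09 for POPTR_0010s19710, -0.20 to 0.95 for POPTR_0014s03660 and -0.92 to 0.60 for POPTR_0014s06770. The cause was not tested. No paired analysis was possible because each condition has 1 library and no replicate numbers to block on; libraries are compared within line and within treatment in the fit itself. The whole antisense line could not be left out of the antisense comparison. Without replicates no depth of sequencing measures the spread between cultures.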
